A study of Mus musculus with 12 samples.

Results

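Ras and Rap GTPases, the exchange factors and GTPase-activating proteins (GAPs) that switch them, and 3 RASSF proteins that bind them were followed in mouse bone marrow-derived macrophages. The gene set was a fixed list of 41 symbols, and a member was taken as a row of the deposited array table whose platform symbol is exactly that name, with the brightest row used where a gene had several. This gave 38 members out of 22180 genes with a named row. Hras, Rap1a and Rasal3 had no row with that symbol alone, and their levels are not analysed here. The 4 groups held 3 arrays each: wild-type cells with saline, wild-type cells with the TLR7 and TLR8 agonist R848 for 4 h, knockout cells with saline, and knockout cells with R848 for 4 h. The knockout carries a floxed Rasgef1b (Rasgef1b_fl/fl) with a Vav-driven Cre (vav-icre), which is active across the blood-forming lineage. All cells were grown in L929 cell conditioned medium. No group carried Cre alone, so Cre and loss of Rasgef1b cannot be told apart. The strain and age of the mice, the dose of R848, the duration of saline and the origin of the replicates (separate animals, cultures or neither) go unstated in the sources used here. The p-values therefore reflect only how these arrays vary, and that variation may be technical.

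Small GTPases of the Ras family cycle between a GTP-bound form that engages effectors and a GDP-bound form that does not. Exchange factors load GTP, GAPs speed its hydrolysis, and the balance of both sets the active pool. In macrophages Ras feeds the ERK cascade and phosphoinositide 3-kinase, Rap controls integrins and adhesion, and Ral acts on the exocyst and vesicle traffic. Rasgef1b is itself an exchange factor of this family and is induced by Toll-like receptor ligands.

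Levels are given as log2 intensities after RMA, on which 1 unit is 2-fold. A gene was tested if it exceeded a dim limit, the 40th percentile of the named rows (4.31 to 4.35 on the 12 arrays), on at least 3 arrays. A gene was said to rise, fall or change when its Benjamini-Hochberg adjusted p from limma over all 14079 tested genes was under 0.05. Of the 38 members 33 were tested: 8 of 9 GTPases, 13 of 14 exchange factors, 9 of 12 GAPs and all 3 RASSF proteins. The untested GTPase was Mras, at 3.98 to 4.24. The untested exchange factor was Rasgrp2, a calcium-regulated Rap activator of platelets, at 3.25 to 3.51. The untested GAPs were Rap1gap at 3.85 to 4.18, Rap1gap2 at 3.65 to 4.01 and Dab2ip at 3.92 to 4.36. Rasgrp1 exceeded the limit on all 6 R848 arrays but on 1 saline array, and Ralgps2 on all 6 saline arrays but on 2 R848 arrays. Both were tested through the groups where they are high, which favours a difference, so their calls are not independent evidence of one. Their differences are given as bounds against the dim limit, and counts also without them.

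Over the tested genes the correlation was 0.9909 to 0.9964 within groups and 0.9159 to 0.9945 across them. The targeted gene Rasgef1b read 9.03, 9.19 and 9.14 on the wild-type saline arrays, in the order of replicates 1, 2 and 3, and 8.63, 7.88 and 8.72 in knockout saline cells. With R848 it read 9.84, 9.84 and 9.69 in wild type and 9.45, 8.60 and 9.36 in knockout. Within each treatment every knockout array was below every wild-type array, but the row kept signal, and the deleted exon and the exons its probes read go unstated. Averaged over treatments Rasgef1b was lower in knockout (-0.68 ± 0.15, SE, limma adjusted p = 0.036). Neither treatment taken by itself passed the threshold in limma. The genotype difference among saline arrays was -0.71 ± 0.21 (SE, adjusted p = 0.158). Among R848 arrays it was -0.65 ± 0.21 (0.333). All 9 macrophage markers with a row were above the dim limit, Csf1r, Adgre1 and Cd68 among them. Their mean was 10.51 to 10.73 on saline arrays and 10.31 to 10.42 on R848 arrays of both genotypes. Of the B cell markers Ms4a1, Cd79a, Pax5 and Ebf1 stayed under the limit on every array and Cd79b did not (4.96 to 5.46), and the mean of the 5 was 3.77 to 3.95. The T and NK cell mean was 4.13 to 4.29, with Cd3e, Cd3g and Cd8a under the limit on every array, Cd4 above it on all 12 (4.72 to 5.36), Klrb1c on 4 and Ncr1 on 1. The neutrophil mean was 3.82 to 4.0, with S100a9 (4.52 to 5.28) and Elane (4.37 to 4.65) above the limit on all 12 arrays. Ltf was above it on 2 arrays and Ngp on 1. The mast cell and basophil mean was 3.56 to 3.72, with Mcpt8 above the limit on 6 arrays. The fibroblast mean was 4.49 to 4.70, and Col1a1, Col1a2, Col3a1 and Pdgfrb (4.88 to 5.66) were above the limit on all 12 arrays. Dendritic cell markers had a mean of 5.08 to 5.37, with Cd209a at 8.59 to 9.44, and the erythroid and megakaryocyte list one of 5.58 to 5.76, with Pf4 at 9.56 to 9.86. In bulk RNA, fewer cells of a type and less RNA per cell cannot be told apart.

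R848 changed most of the tested members in both genotypes, and in both directions. In wild type 13 of 33 rose and 9 fell, where 14.6% of all tested genes rose and 23.6% fell. In knockout 13 rose, against 15.6% of all genes, and 11 fell, against 26.0%. In either direction 22 members were called in wild type (38.3% of all genes) and 24 in knockout (41.6%). The arrays of the 2 treatments did not overlap for 24 members in each genotype, beside 48.1% of all genes in wild type and 48.8% in knockout. Of all called genes 38.3% were higher in wild type and 37.4% in knockout, and after median centring over the tested genes 62.2% and 63.6%. Under that centring the members split 14 higher and 8 lower in both genotypes. The 13 that rose were the same genes in both genotypes, and the 9 that fell in wild type also fell in knockout. Without Rasgrp1 and Ralgps2, 12 of 31 rose and 8 fell in wild type, and 12 and 10 in knockout. Rapgef6 and Rassf2 passed the threshold only in knockout, and 9 members passed in neither genotype. At least 2-fold were 8 increases and 3 decreases in wild type, where 3.83% and 3.39% of all genes moved that far, and 7 and 3 in knockout, where both shares were 3.86%. Rasgrp1 is 1 of these increases. The median absolute difference of the members was 0.56 in wild type, beside 0.17 for all genes, while their median difference was 0.01, beside -0.02. In knockout these were 0.67, beside 0.19, and 0.04, beside -0.03. The members were chosen with earlier results of these data known, and dim genes, whose differences are compressed, are among all genes. The shares and medians beside all genes therefore describe the list and do not test it. The macrophage markers moved too: 2 of 9 rose and 4 fell in wild type, 2 rose and 5 fell in knockout, and their mean was lower with R848, as given above. Among markers of other cells the fibroblast receptor Pdgfrb rose by 0.47 in wild type and 0.39 in knockout, and Cd4 fell by 0.33 and by 0.28. In knockout the neutrophil gene S100a9 (0.32) and the dendritic cell gene Ccr7 (0.43) also rose, and Cd209a (-0.51) and Elane (-0.20) fell. The part of these in the members' changes was not tested.

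**Figure D1:**
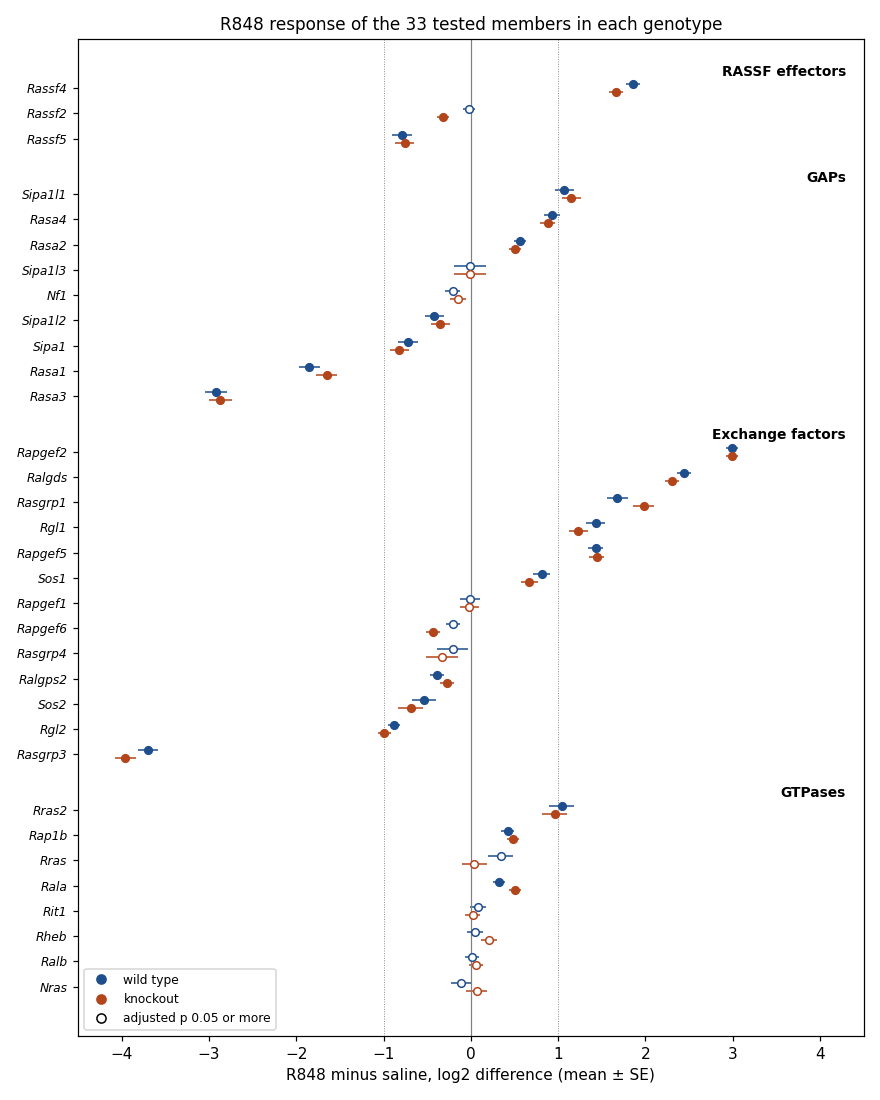
R848 minus saline on the log2 scale (x axis) for each of the 33 tested members (y axis), grouped by role, in wild type (blue) and knockout (orange), as limma estimates with their SE; filled points passed the threshold, and dotted lines mark 2-fold. Rapgef2 at 2.99 and Rasgrp3 at -3.70 and -3.96 are the ends of the range, and the blue and orange points of a gene lie close together.

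The promoter windows of 4 members are shown because they are the largest increase, the largest decrease, and an increase and a decrease that hold the same motif. Each runs from 250 bases before to 50 after a RefSeq transcription start (GRCm38.p6), 5′ to 3′ along the gene. For Rapgef2 and Rasgrp3, which have 2 listed starts, the outermost of these is shown, and for Rgl1 the start whose window holds the motif. The Rapgef2 window lies inside the gene, which extends 5′ to base 79286545, so the region at that end is not shown. Capitals mark a match to the NF-kB motif on either strand.
Rapgef2, chr3:79145826-79146125, minus strand: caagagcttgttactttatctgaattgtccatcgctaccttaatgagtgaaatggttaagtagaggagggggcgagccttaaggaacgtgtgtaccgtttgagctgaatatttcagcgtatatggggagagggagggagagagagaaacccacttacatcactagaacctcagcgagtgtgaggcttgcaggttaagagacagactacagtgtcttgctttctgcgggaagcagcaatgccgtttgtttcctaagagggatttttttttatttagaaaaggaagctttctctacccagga
Rasgrp3, chr17:75435655-75435954, plus strand: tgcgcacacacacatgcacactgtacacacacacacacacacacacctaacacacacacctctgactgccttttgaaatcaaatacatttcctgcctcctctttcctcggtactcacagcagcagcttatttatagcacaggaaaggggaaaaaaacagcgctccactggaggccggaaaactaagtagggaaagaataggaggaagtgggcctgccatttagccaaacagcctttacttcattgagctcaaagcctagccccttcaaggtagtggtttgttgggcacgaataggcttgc
Rgl1, chr1:152766256-152766555, minus strand: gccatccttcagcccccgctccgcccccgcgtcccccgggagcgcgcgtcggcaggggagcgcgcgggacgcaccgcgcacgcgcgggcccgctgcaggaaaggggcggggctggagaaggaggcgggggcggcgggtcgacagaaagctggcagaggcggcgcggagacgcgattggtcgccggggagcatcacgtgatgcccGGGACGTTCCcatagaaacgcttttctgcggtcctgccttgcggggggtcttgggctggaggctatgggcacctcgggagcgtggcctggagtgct
Rasa3, chr8:13677538-13677837, minus strand: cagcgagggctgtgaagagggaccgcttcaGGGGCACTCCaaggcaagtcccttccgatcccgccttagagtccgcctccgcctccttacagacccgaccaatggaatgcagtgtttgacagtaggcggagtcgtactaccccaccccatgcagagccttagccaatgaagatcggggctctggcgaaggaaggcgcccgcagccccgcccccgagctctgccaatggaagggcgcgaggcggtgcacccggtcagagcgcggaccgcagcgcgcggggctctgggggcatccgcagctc
Windows were listed for 39 of the 41 members, 63 in all, of which some overlap. They include windows of Hras and Rasal3, which had no array row of their own. The NF-kB motif occurred in 9 of them, from 7 members, and in 8.46% of all 32851 windows of this length. Its members were Rgl1, which rose, Rasa3 and Sipa1, which fell, Rras and Sipa1l3, which did not pass the threshold in wild type, and Rap1gap and Rasgrp2, which were not tested. The AP-1 motif TGANTCA (7.81% of all windows) was found for Sipa1l2, the cyclic AMP response element TGACGTCA (1.79%) for Rap1b, and the interferon response motif GAAANNGAAA (3.44%) for Sipa1l1. Both strands were searched, and none of these motifs contains another. A match describes letters in a window, not binding.

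With R848, 14.6% of all genes rose and 23.6% fell in wild type, and 15.6% and 26.0% in knockout. Among the GTPases, 3 of 8 rose with R848 in each genotype and 0 fell. Rras2, a Ras relative that can drive the same effectors, was the only one at least 2-fold higher, in wild type. It read 5.43, 5.65 and 5.20 with saline and 6.50, 6.64 and 6.27 with R848 in wild type. In knockout it read 5.61, 5.62 and 5.21 with saline and 6.43, 6.59 and 6.29 with R848. The R848 arrays lay above the saline arrays in both genotypes, by 1.04 ± 0.14 (SE, limma adjusted p = 2.13e-05) and 0.96 ± 0.14 (4.50e-05).

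Rap1b, which activates integrins, was at 11.11 ± 0.07 (SD, n = 3) with saline and 11.53 ± 0.03 with R848 in wild type, a rise of 0.42. In knockout it rose by 0.48, and a dimmer second row of the gene rose by 1.23 and 1.18. Rala, a Ral GTPase that binds the exocyst, had a mean of 8.33 ± 0.09 (SD, n = 3) with saline and 8.65 ± 0.04 with R848 in wild type, and of 8.10 ± 0.08 and 8.61 ± 0.05 in knockout. It rose by 0.32 and 0.51. Its close relative Ralb stood at 8.24 to 8.53 on all 12 arrays, with differences of 0.01 (95% interval -0.17 to 0.18) and 0.06 (-0.12 to 0.23).

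Nras, a classical Ras protein, read between 8.35 and 8.87, with -0.11 in wild type and 0.07 in knockout. Rit1, a Ras-like GTPase, had differences of 0.08 and 0.02. Rheb, which switches on the growth kinase mTOR, had 0.05 in wild type and 0.21 in knockout. The knockout value of Rheb had an adjusted p of 0.0742, and passed after cyclic loess (0.0204) and without knockout R848 replicate 1 (0.0226). Rras, linked to adhesion, was at 8.85, 8.77 and 8.62 in wild-type saline and 9.13, 9.05 and 9.09 with R848. Its wild-type groups did not overlap, but 0.34 ± 0.14 (SE) missed the threshold (adjusted p = 0.0735). The knockout saline arrays of Rras were spread from 8.76 to 9.48, and the wild-type difference passed without replicate 1 (0.00733) or 3 (0.0421) of that group, or with the wild-type arrays fitted alone (0.0069).

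Exchange factors held the largest changes in both directions. In each genotype 6 of 13 rose, Rasgrp1 among them, beside 14.6% of all genes in wild type and 15.6% in knockout. In wild type 4 fell and in knockout 5, Ralgps2 among them, beside 23.6% and 26.0% of all genes. Rapgef2, which activates Rap, had the largest increase of any member. On wild-type arrays it read 6.03, 6.16 and 6.03 with saline and 9.06, 9.08 and 9.04 with R848. On knockout arrays it read 6.26, 6.22 and 6.06 with saline and 9.12, 9.16 and 9.22 with R848. The groups were far apart, and the difference was 2.99 ± 0.07 (SE) in both genotypes, or 7.93-fold (adjusted p = 4.15e-13 in wild type and 4.74e-13 in knockout).

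Ralgds links active Ras to Ral, since its product binds Ras-GTP and loads Ral. It read 7.01, 6.86 and 6.75 in wild-type saline cells and 9.38, 9.23 and 9.33 with R848. Its knockout values were 6.78, 6.93 and 6.76, and 9.20, 9.13 and 9.04 with R848. The R848 arrays were higher without overlap, by 2.44 ± 0.08 (SE, adjusted p = 1.35e-11) and 2.30 ± 0.08 (1.99e-11).

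Rgl1, a second exchange factor of the RalGDS family, read 7.33, 7.06 and 6.87 in wild type with saline and 8.55, 8.41 and 8.60 with R848. Its knockout arrays read 7.17, 7.36 and 7.03, and 8.39, 8.44 and 8.41 with R848. It rose by 1.43 ± 0.11 (SE) and 1.23 ± 0.11. Rgl2, the third gene of that family on the member list, moved the other way. It was at 8.0 ± 0.10 (SD, n = 3) with saline and 7.12 ± 0.03 with R848 in wild type, and fell by 0.88 there and by 0.99 in knockout. Rgl3, a relative outside the member list, had -0.21 and -0.11 and did not pass.

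Rapgef5, another Rap activator, read 7.93, 8.01 and 8.05 with saline and 9.42, 9.43 and 9.42 with R848 in wild type. Knockout cells gave 7.87, 7.74 and 8.09, then 9.39, 9.22 and 9.42 with R848. The increases were 1.43 ± 0.09 and 1.44 ± 0.09 (SE), with no overlap between the treatments. Rapgef6, the nearest relative of Rapgef2, fell in knockout by 0.43 ± 0.08 (SE, adjusted p = 6.57e-04), while its wild-type value was -0.21 (0.0589). That wild-type value passed with the 6 wild-type arrays fitted alone, with a stricter dim filter and without knockout R848 replicate 1 or 3 (adjusted p between 0.0376 and 0.0472). Rapgef1, which acts downstream of Crk adaptors, had -0.01 and -0.02.

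The RasGRP proteins are Ras and Rap activators that respond to diacylglycerol. Rasgrp3 fell further than any other member. It read 8.45, 8.24 and 8.45 in wild-type saline cells and 4.80, 4.79 and 4.44 with R848. Its knockout arrays gave 8.94, 8.89 and 8.63 with saline and 4.83, 4.75 and 5.01 with R848. It fell by 3.70 ± 0.12 (SE, adjusted p = 4.92e-12), a 13-fold lower signal, and by 3.96 ± 0.12 (2.01e-12), a 15.5-fold lower signal. All R848 arrays stayed above the dim limit.

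Rasgrp1, best known from T cells, rose from near the dim limit. It read 4.17, 4.18 and 4.29 in wild type with saline and 5.76, 5.99 and 5.93 with R848. In knockout it read 4.35, 3.81 and 4.26, and 6.19, 6.01 and 6.17 with R848. Of the 6 saline arrays 5 were under the limit. With those set to the limit, Rasgrp1 was at least 2.97-fold higher with R848 in wild type and at least 3.45-fold higher in knockout. The T cell markers Cd3e, Cd3g and Cd8a were under the limit on every array, and Cd4, which was above it on all 12, was lower with R848, as given above. Of the same list Klrb1c was above the limit on 4 arrays and Ncr1 on 1. The part of T and NK cells in the Rasgrp1 values was not tested. Rasgrp4, first described in mast cells, had -0.21 and -0.33 and did not pass. In a fit of the 6 knockout arrays with the replicate number as a block its -0.33 passed (adjusted p = 0.0188), as it did without knockout R848 replicate 1 (-0.51, adjusted p = 0.0355).

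Sos1 and Sos2, the exchange factors that Grb2 brings to receptors, moved apart. Sos1 had means of 6.90 ± 0.21 (SD, n = 3) with saline and 7.70 ± 0.11 with R848 in wild type, and of 6.93 ± 0.03 and 7.60 ± 0.08 in knockout. The corresponding means of Sos2 were 8.25 ± 0.17 and 7.71 ± 0.18, and 8.35 ± 0.27 and 7.65 ± 0.17. Sos1 rose by 0.81 and 0.67, and Sos2 fell by 0.54 and by 0.69. Ralgps2, a Ral exchange factor regulated without Ras, was at 4.74 ± 0.09 (SD, n = 3) and 4.64 ± 0.11 with saline in wild type and knockout, and with R848 it was above the dim limit on 1 array of each genotype. With the other R848 arrays set to the limit, it was at least 1.30-fold lower with R848 in wild type and at least 1.18-fold lower in knockout. Its knockout call was lost without knockout R848 replicate 2 or 3 or knockout saline replicate 2 (adjusted p between 0.0562 and 0.0900), and after median centring over the tested genes (0.198).

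**Figure D2:**
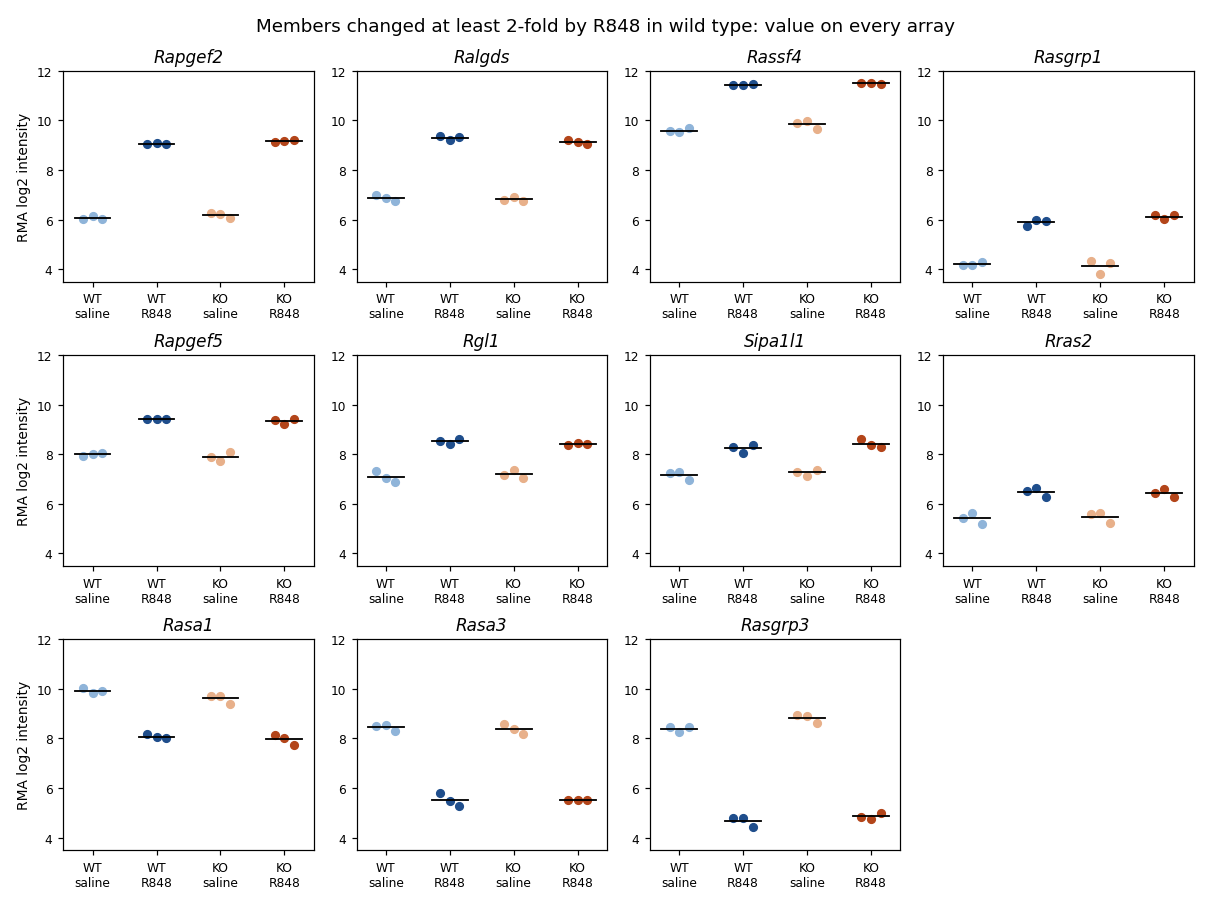
RMA log2 intensity (y axis, same range in every panel) of the 11 members that changed at least 2-fold with R848 in wild type, 1 point per array and a line at the mean, for wild type (WT) and knockout (KO) with saline or R848 (x axis). In every panel the R848 points are separated from the saline points in both genotypes, from Rapgef2, near 6 and 9, to Rasgrp3, above 8 and at or below 5.01. The panels were picked by their R848 difference, so this separation is no further evidence of it. Rasgrp1 also passed the dim filter through its R848 arrays.

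GAPs, which turn the GTPases off, also split: 3 of 9 rose and 4 fell, the same counts in both genotypes. Of all genes 14.6% rose and 23.6% fell in wild type, and 15.6% and 26.0% in knockout. Rasa3, which acts on Ras and Rap, fell most among the GAPs. Its wild-type arrays read 8.52, 8.53 and 8.28 with saline and 5.81, 5.48 and 5.28 with R848. Its knockout arrays read 8.59, 8.38 and 8.17, and 5.53, 5.50 and 5.51 with R848. The fall was 7.57-fold in wild type and 7.29-fold in knockout (-2.92 ± 0.13 and -2.87 ± 0.13, SE, adjusted p = 1.35e-10 and 1.51e-10).

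Rasa1, the prototype Ras GAP that docks on phosphorylated receptors, read 10.05, 9.82 and 9.92 in wild-type saline cells and 8.16, 8.07 and 8.0 with R848. Knockout cells gave 9.73, 9.72 and 9.39, then 8.13, 8.03 and 7.72. The treatments did not overlap in either genotype, and Rasa1 fell by 1.85 ± 0.12 (SE) and by 1.65 ± 0.12.

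Rasa2 and Rasa4, which belong to the same GAP1 group as Rasa3, moved opposite to it. Rasa4, a calcium-triggered Ras inactivator, had means of 8.21 ± 0.15 (SD, n = 3) with saline and 9.15 ± 0.14 with R848 in wild type, and of 8.36 ± 0.08 and 9.24 ± 0.08 in knockout. It rose by 0.93 and 0.88. Rasa2 rose by 0.56 and 0.51, from 6.70 in each genotype. Nf1, neurofibromin, was at 7.66 to 8.05 on all arrays, with -0.21 in wild type (adjusted p = 0.0807) and -0.15 in knockout. The wild-type value of Nf1 passed without wild-type R848 replicate 1 (adjusted p = 0.0347) or wild-type saline replicate 3 (0.0367).

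Sipa1 and its relatives are Rap GAPs. Sipa1l1, described at dendritic spines, read 7.26, 7.27 and 6.97 with saline and 8.29, 8.06 and 8.36 with R848 in wild type. Its knockout values were 7.30, 7.14 and 7.37, and 8.61, 8.36 and 8.28 with R848. It rose by 1.07 ± 0.11 and 1.15 ± 0.11 (SE), without overlap. Sipa1 itself was at 7.83 ± 0.12 (SD, n = 3) with saline and 7.11 ± 0.14 with R848 in wild type. It fell by 0.72 there and by 0.82 in knockout. Sipa1l2 fell by 0.42 in wild type and by 0.35 in knockout (adjusted p = 0.00783 and 0.0205), calls that did not survive every setting. The knockout call ended after cyclic loess (-0.25) and without knockout saline replicate 1 or 2 or R848 replicate 1 or 3 (adjusted p between 0.0511 and 0.0974). Both calls ended after median centring over the tested genes (-0.29 and -0.21, adjusted p = 0.0564 and 0.146). Sipa1l3 was spread from 6.11 to 6.90 and had -0.01 in both genotypes, with a 95% interval of -0.40 to 0.38 in each.

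The RASSF proteins carry a Ras-association domain and act as scaffolds, among others for Hippo kinases. Rassf4 read 9.57, 9.52 and 9.69 with saline and 11.45, 11.42 and 11.48 with R848 in wild type. In knockout it read 9.88, 9.98 and 9.67, and 11.50, 11.53 and 11.48 with R848. It rose by 1.86 ± 0.08 (SE, adjusted p = 1.63e-10) and 1.66 ± 0.08 (5.34e-10). Rassf5, which binds Rap in adhesion, was at 6.81 ± 0.15 (SD, n = 3) with saline and 6.02 ± 0.03 with R848 in wild type. It fell by 0.79 there and by 0.76 in knockout.

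Rassf2 was flat in wild type, at 8.58, 8.65 and 8.71 with saline and 8.64, 8.63 and 8.60 with R848. In knockout it read 8.87, 8.97 and 8.82 with saline and 8.49, 8.61 and 8.59 with R848, and fell by 0.32 ± 0.07 (SE, adjusted p = 0.00177). After median centring over the tested genes that knockout difference was -0.18 and did not pass (adjusted p = 0.0527). The difference between the genotypes was not past the threshold when tested itself, as given with the interaction.

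Some related members moved in opposite directions in both genotypes: Sos1 and Sos2, Rgl1 and Rgl2, Rasa2 and Rasa3, and Rasa4 and Rasa1. So did Sipa1l1 and Sipa1, and Rassf4 and Rassf5, and each of these genes passed the threshold on its own. Rasgrp1 and Rasgrp3 also differed in direction, but Rasgrp1 passed the dim filter through its R848 arrays. Other related members moved together in both genotypes. Ralgds and Rgl1 rose, as did Rapgef2 and Rapgef5, and Rasa2 and Rasa4. Rasa1 and Rasa3 fell, as did Sipa1 and Sipa1l2, and the Sipa1l2 calls did not survive every setting. These families were put together after the values were seen. No count of exchange factors against GAPs measures the activity of Ras or Rap, which was not assayed.

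**Figure D3:**
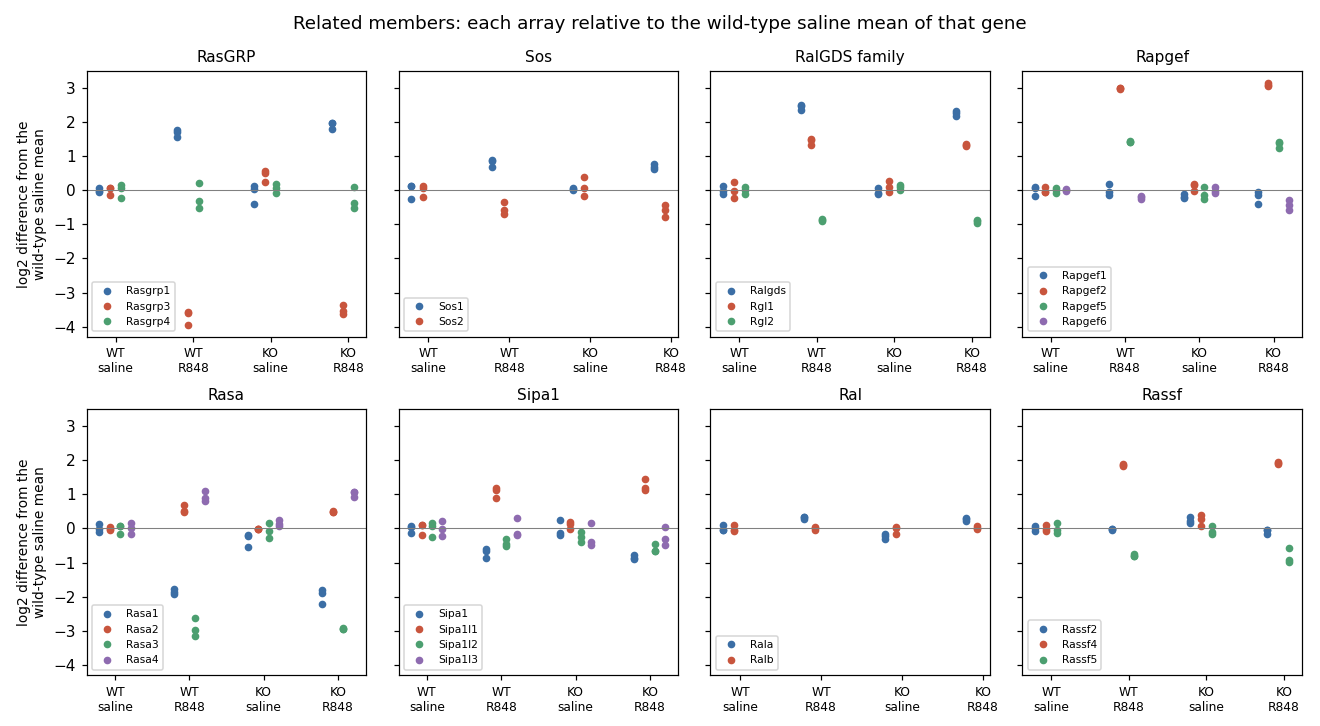
Each array's log2 value minus the wild-type saline mean of the same gene (y axis) in 8 families of related members, 1 point per array, by group (x axis, WT wild type and KO knockout). Rasgrp3, Rasa1 and Rasa3 lie below 0 and Rasa4 above it on all R848 arrays. Rasgrp1 also lies above 0 there, but it passed the dim filter through its R848 arrays, which favours that difference.

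Other genes of the pathway, from a pair of lists, were read the same way. Of 31 tested further GTPases and regulators, 7 rose and 7 fell in wild type, where 14.6% and 23.6% of all genes did. In knockout 7 rose and 8 fell, beside 15.6% and 26.0% of all genes. The 7 include the targeted gene Rasgef1b, which rose by 0.73 with overlapping arrays. The medians of this list were at the level of all genes (0.00, beside -0.02, in wild type). The largest changes in wild type were in Rassf3, a RASSF relative, which fell by 1.94, in Spred2, an inhibitor of Ras signalling, which fell by 1.13, and in Rap2c, which rose by 1.09. They were followed by the GTPase Rap2a (-0.66) and by Rassf8 (-0.60) among the decreases. The other increases named were Rasgef1b (0.67), the GTPase Gem (0.45) and Spred1 (0.44). In knockout Rassf3 fell by 2.04 and Spred2 by 0.72, and Rap2c rose by 1.16.

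Of 35 tested adaptors, processing enzymes and effectors, 14 rose and 6 fell in wild type, where 14.6% and 23.6% of all genes did. In knockout 14 rose and 7 fell, beside 15.6% and 26.0% of all genes. The median of this list was 0.02 in wild type. Rin3, which binds Ras and activates Rab5, rose by 1.58, the docking protein Gab1 by 1.24, Pggt1b, a subunit of the enzyme that prenylates Rap and Ral, by 0.98, and Rin2 by 0.61. Rgs14, which binds Ras and Rap, fell by 0.90. The lipid kinase subunit Pik3cb changed by -0.62, the ubiquitin ligase Cblb by -0.43 and Pik3cg by -0.23. One listed gene, Rlf, encodes a zinc-finger protein and no effector, and is counted among those that rose (0.56).

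Between genotypes no tested member passed the threshold in either treatment. With saline, limma called 0 of 33 members, beside 0.334% of all genes, and 7 had an unadjusted p under 0.05, beside 12.6% of all genes. With R848 it called 0, beside 0.135% of all genes, with 2 at an unadjusted p under 0.05, beside 8.74%. The knockout minus wild-type differences ran from -0.32 to 0.44 with saline and from -0.24 to 0.23 with R848. The 95% intervals, not adjusted for the number of members, lay within 1 either way for all 33 members in both treatments, and within 0.5 for 29 with saline and 32 with R848. A 2-fold genotype difference thus lay outside the interval of each tested member.

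Rasgrp3 had the largest value with saline, higher in knockout by 0.44 ± 0.12 (SE, limma adjusted p = 0.123), with all 3 knockout arrays above all wild-type arrays. With R848 its difference was 0.19 ± 0.12 (adjusted p = 0.700), with overlapping arrays. Averaged over treatments limma called 0 of 33 members, beside 1.78% of all genes, with 6 at an unadjusted p under 0.05, beside 16.1% of all genes. Rasgrp3 had 0.31 ± 0.08 there (SE, adjusted p = 0.0654). That value passed after cyclic loess (0.36, adjusted p = 0.0334), after median centring over the tested genes (0.35, 0.0426) and without knockout saline replicate 3 (0.36, 0.0408).

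With saline the genotypes also did not overlap for Rassf2 (0.24), Rala (-0.23) and Rasa1 (-0.32), so 4 of 33 members in all, beside 16.1% of all genes. With R848 the 4 were Rapgef6 (-0.22), Ralgds (-0.19), Rasgrp1 (0.23) and Rapgef2 (0.11), beside 13.8%. In both treatments 4 of 33 is 12.1%, no more than the share of all genes. With saline, the mean of the dendritic cell markers was 5.24 to 5.37 in knockout and 5.08 to 5.23 in wild type, and that of the macrophage markers 10.63 to 10.73 and 10.51 to 10.62. None of the 9 macrophage and 5 tested dendritic cell markers passed the threshold there, with 2 of each at an unadjusted p under 0.05 in limma, and the difference of Cd209a was 0.52 (adjusted p = 0.0716). Pf4 was higher in knockout without overlap (0.21, adjusted p = 0.202). With R848 the neutrophil gene S100a9 was 0.47 higher in knockout without overlap (adjusted p = 0.0866), and averaged over treatments it passed the threshold (0.29, adjusted p = 0.0375). The part of these markers in the members' values was not tested.

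**Figure D4:**
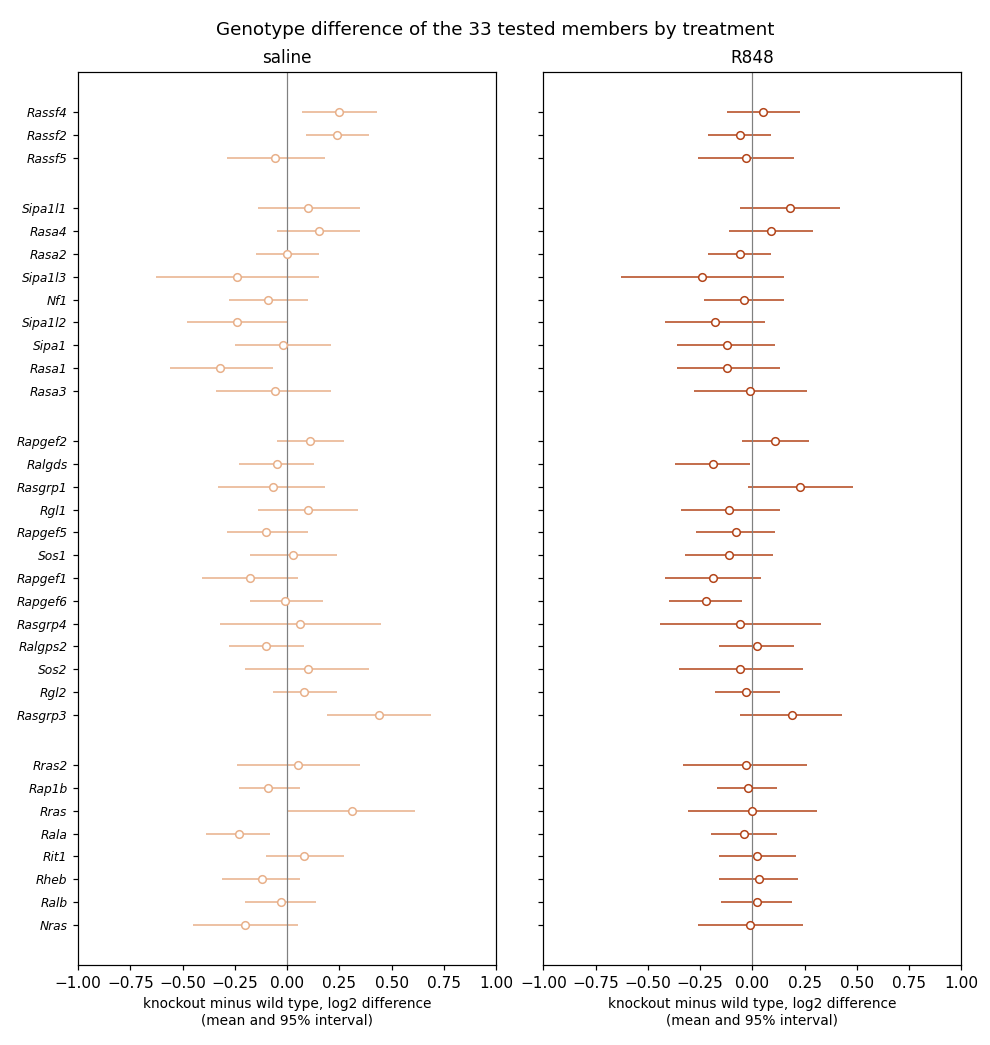
Knockout minus wild type on the log2 scale (x axis) with its 95% interval for the 33 tested members (y axis), with saline (left) and with R848 (right); open points did not pass the threshold. All points lie between -0.32 and 0.44, and no interval reaches 1 in either direction.

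Whether the R848 response of a member depended on genotype was tested by the interaction, the knockout response minus the wild-type response. Limma called 0 of 33 members, beside 0.0142% of all genes, and 1 had an unadjusted p under 0.05, beside 4.93% of all genes. The interactions ran from -0.31 to 0.30. Rassf2 had the smallest p, with -0.30 ± 0.10 (SE, unadjusted p = 0.00962, adjusted p = 0.965). Rala followed with 0.19 ± 0.10 and Rapgef6 with -0.22 ± 0.12 (adjusted p = 0.986 for each). For Rasgrp3 the interaction was -0.25, with a 95% interval of -0.60 to 0.10. The intervals lay within 0.5 either way for 22 of 33 members and within 1 for all 33, so smaller dependence on genotype was not resolved with 3 arrays per group.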

How the data were processed

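Total RNA was hybridized to Mouse Gene 2.1 ST arrays. Per the submitters' processing notes, the authors used Affymetrix Expression Console and RMA (versions not given in the sources used here), and the deposited values are log2 intensities, 2.15 to 12.85, with array medians of 4.49 to 4.57. RMA equalizes arrays, so a change in total RNA per cell is not visible, and dim differences are compressed. Of 34472 rows 23521 had 1 symbol in the platform table, 1814 several and 9137 none, and only the first were named. Removing genes under the dim limit left 14079 of 22180.

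Groups and replicate numbers came from the sample titles. All 12 arrays entered 1 limma 3.58.1 model (R 4.3.3, lmFit and eBayes, group means, no covariate), with Benjamini-Hochberg adjustment over all tested genes per contrast and a threshold of 0.05. The fit was also run on simulated data with independent arrays and no replicate effect, which could not test the effect of a pairing. Members with a change of at least 1 were given by array, and up to 4 genes per direction of each pathway list were named. The members and lists were chosen with earlier results of these data known. Same-numbered knockout arrays had residual correlations of 0.27, 0.17 and 0.28, over the minimum of 0.1, a pairing that comes from the data. Same-numbered arrays of different genotypes had 0.12, -0.12 and 0.14 with saline. With R848 these had 0.33, -0.0039 and 0.1, so what the replicate number stands for was not settled. Alternatives covered the spread estimate, dim filter, scaling, arrays fitted, replicate block, a gene's second row and each array left out. Scan dates were not used here. Promoters are RefSeq, GRCm38.p6.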

Additional observations from a re-analysis of the deposited data

How the results depend on the processing

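The counts of members that rose or fell with R848 stayed within 1.5 times under all alternatives: 13 to 14 rose in each genotype, 8 to 11 fell in wild type and 8 to 12 in knockout. With the replicate number as a block over all arrays 14 rose and 11 fell in wild type, and 14 rose and 11 fell in knockout. Leaving out each array gave 13 to 14 higher in each genotype, 9 to 10 lower in wild type and 9 to 11 in knockout. In the genotype effect averaged over treatments, 1 member passed in place of 0 after cyclic loess, and 1 after median centring over the tested genes, a setting chosen after seeing the data; without single arrays the count was 0 to 1. It was Rasgrp3 each time. No other genotype or interaction setting called a member, and no call changed direction. In wild type the same-numbered arrays had residual correlations of 0.25, -0.057 and 0.23. Replicate 2 was under the minimum of 0.1, so a pairing there was not settled. With the block over all arrays Rras, Rapgef6 and Nf1 passed in wild type (adjusted p = 0.0221, 0.0444 and 0.025) and Rheb in knockout (0.0423), and with the block in 6 arrays Rras and Rapgef6 in wild type and Rasgrp4 in knockout; it changed no other call. Median centring over the tested genes moved the median of all genes with R848 from -0.02 to 0.11 (wild type) and from -0.03 to 0.12 (knockout). The share of all genes called was 24.1% to 51.8% for R848 (wild type), 26.9% to 55.3% (knockout), 0.0568% to 0.703% for genotype with saline, 0.0766% to 0.207% with R848, 0.0071% to 0.0207% for the interaction and 0.519% to 3.18% averaged. Differences near or under the dim limit, as for Rasgrp1 with saline and Ralgps2, are limited by background.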
